A study of Homo sapiens with 4 samples.

Results

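The transcriptome of 8505C, a human anaplastic thyroid carcinoma line, was compared with that of FTC-133, a human follicular thyroid carcinoma line, across the 19513 of 58884 deposited genes whose TPM averaged 1 or more over 4 libraries. TPM is a read number per length of gene, brought to an equal total in all libraries. Each line was sequenced once with an empty vector and once with a vector for overexpression of CRABP1, a cytoplasmic carrier of retinoic acid, so that each line held 2 libraries and each of the 4 groups held 1. With the empty vector CRABP1 was listed at 0 TPM in either line, and with the overexpression vector it reached 385 TPM in FTC-133 cells and 537 TPM in 8505C cells. A gene is described as different between the lines where the difference held in the vector pair (8505C vector over FTC-133 vector) and in the CRABP1 pair (8505C CRABP1 over FTC-133 CRABP1). Each carcinoma type is represented by 1 cell line, so the type and the individual tumour a line came from cannot be told apart. The labels do not say that the libraries came from separate cultures, so p-values do not measure the spread between cultures. In the main fit they rest on how far the vector pair and the CRABP1 pair disagree, with variances moderated across genes. A response to CRABP1 that differs between the lines therefore counts as spread. About 20331464 and 20309248 reads lay behind the FTC-133 libraries and 19174557 and 19304250 behind the 8505C libraries, and mitochondrially encoded genes held between 25.9% and 28.6% of the TPM.

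Follicular thyroid cells make thyroid hormone on the protein scaffold thyroglobulin, with the iodide transporter and the thyrotropin receptor, under the joint control of the transcription factors PAX8, NKX2-1, FOXE1 and HHEX. Follicular carcinoma is a differentiated tumour of these cells and often keeps part of that programme. Anaplastic carcinoma is undifferentiated, grows fast, and is known for loss of thyroid function, change of epithelial character and tissue invasion.

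Over all genes tested, limma, a linear model with moderated variances fitted to log2(TPM + 1) with cell line and transfection as terms, called 35.2% of the genes, 2542 higher in 8505C (13%) and 4335 lower (22.2%), at an adjusted p below 0.05. A 2-fold ratio of TPM + 1 in both pairs, which uses no test, was met by 1492 genes higher in 8505C (7.65%) and 3121 lower (16%). Both criteria together held for 1372 genes higher and 2798 lower, and 443 genes that were 2-fold in both pairs were not called by limma. Genes at the edge of the 2-fold rule had log2 ratios of 1.0001 and 0.9999 on its inner and outer side above, and -1.0003 and -0.9998 below. A 16-fold ratio in both pairs was reached by 109 genes higher and 194 lower. Among the 12922 protein-coding genes, 999 were 2-fold higher in both pairs (7.73%) and 1808 were 2-fold lower (14%). Scaling by median ratios moved the median difference over all genes from -0.19 to -0.05. It moved the share of limma calls that were higher in 8505C from 37.0% to 48.0%, with 3177 genes higher and 3447 lower. By the 2-fold rule in both pairs, 1757 genes were higher and 2745 lower at that scaling. The size of the excess of lower genes thus depends on the scaling, while lower genes remained the more numerous by both criteria. Without the 8505C vector library or without the 8505C CRABP1 library limma called 0 genes, with smallest adjusted p-values of 0.069 and 0.0687, and without the FTC-133 vector or CRABP1 library it called 1113 or 1221 genes higher and 2398 or 2260 lower. These fits had line as the sole term and assumed that the lone library varies like the others. At an unadjusted p below 0.05 there were 6710 and 6736 genes without the 8505C vector and CRABP1 library, against 9561 with all libraries.

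The line difference was larger than the difference between vector and CRABP1 within a line. Over all genes tested, 1840 differed 2-fold between the FTC-133 libraries and 1312 between the 8505C libraries, against 6278 to 6608 between a library of one line and a library of the other. Of the 8960 protein-coding genes that averaged 10 TPM or more, 197 differed 2-fold between the FTC-133 libraries and 30 between the 8505C libraries, whereas 1818 to 1928 differed between the lines. Across all genes tested, the log2 ratio in the vector pair and that in the CRABP1 pair had a Pearson r of 0.820 and a Spearman rho of 0.767. Over the 9744 genes that averaged 10 TPM or more they were 0.939 and 0.887. These are correlations across genes, which are not independent replicates, and the pairs share no library. Opposite directions by 2-fold were seen for 187 genes, of which 6 were protein-coding.

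**Figure D1:**
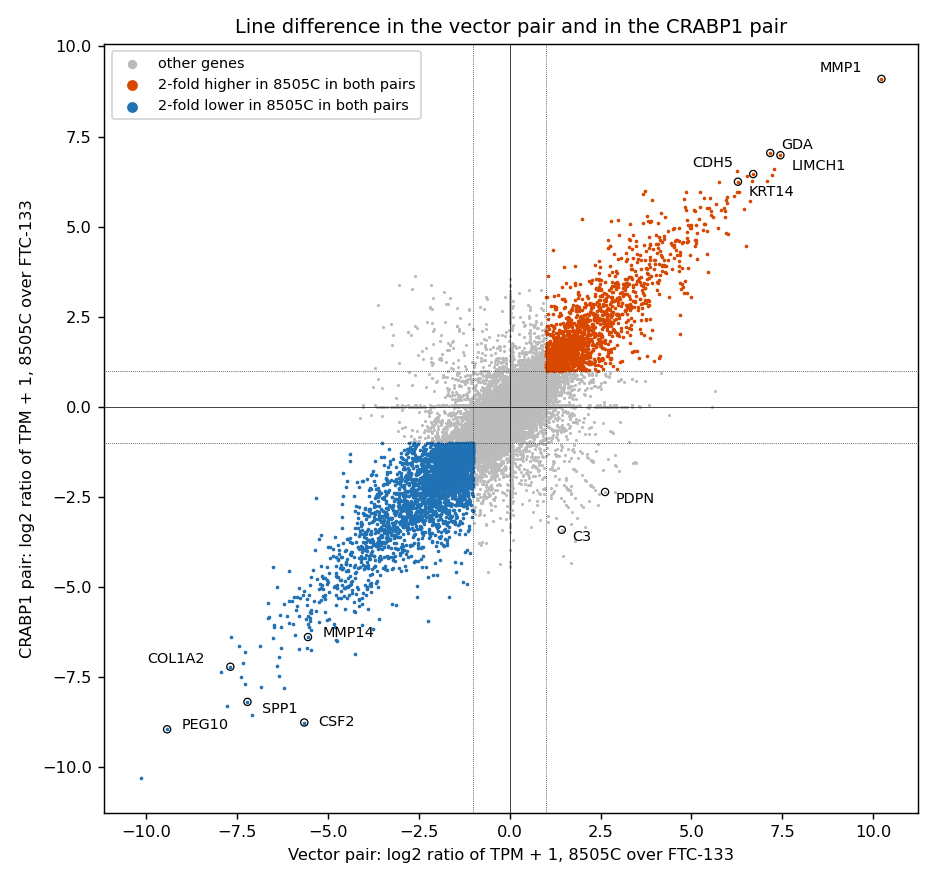
Log2 ratio of TPM + 1 of 8505C over FTC-133 in the vector pair (horizontal axis) and in the CRABP1 pair (vertical axis), 1 point per gene tested. Orange and blue points are the 1492 and 3121 genes 2-fold higher and lower in both pairs, dotted lines mark 2-fold, circles mark genes named in the text, and C3 and PDPN lie in the quadrant of opposite directions.

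Values in pairs below give the vector library first and the CRABP1 library second, in TPM. A difference is that of the line means on the log2(TPM + 1) scale, 8505C minus FTC-133, with the standard error and Benjamini-Hochberg adjusted p of limma over n = 2 libraries per line. The scale understates the change of genes with low TPM. Counts of list members called are to be read beside all genes tested, of which 13% were called higher in 8505C and 22.2% lower. By the 2-fold rule in both pairs these shares were 7.65% and 16%.

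The gene with the largest difference upward was MMP1, the interstitial collagenase that cleaves fibrillar collagen (ENSG00000196611, GRCh38 chromosome 11, 102789920 to 102798160). FTC-133 held 10.6 and 23.7 TPM of MMP1 and 8505C held 13980 and 13570 TPM. The log2 difference of MMP1 was 9.67 ± 0.31 (SE, limma adjusted p = 0.00336). The 12 largest genes were ranked on these same libraries, so the separation of the lines and the small p-values follow from that choice. GDA, guanine deaminase of purine catabolism, had 0.232 and 1.06 TPM in FTC-133 and 176 and 270 TPM in 8505C. LIMCH1, an activator of non-muscle myosin, had 0.0338 and 0.140 TPM against 180 and 143 TPM. STMN3, a microtubule-destabilising phosphoprotein mostly known from neurons, had 1.03 and 2.06 TPM against 316 and 299 TPM. The differences were 7.11 ± 0.13 for GDA, 7.21 ± 0.19 for LIMCH1 and 6.95 ± 0.21 for STMN3 (SE, limma adjusted p = 0.00336 for each). CDH5, the cadherin of endothelial junctions, had 0 and 0.125 TPM in FTC-133 and 103 and 97.9 TPM in 8505C. ESM1, a secreted proteoglycan also known from endothelium, had 0 and 0.352 TPM against 133 and 103 TPM. SMOC1, a matricellular calcium-binding protein, had 0.0841 and 0.564 TPM against 109 and 120 TPM. The remaining genes of the 12 largest were KRT14, PERP, TM4SF18, MSLN and MYL9, each at most 1.72 TPM in the FTC-133 libraries and at least 56.0 TPM in the 8505C libraries.

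FTC-133 with CRABP1 had more reads of these genes than FTC-133 with vector. For 11 of the 12 its read number was the higher, with 412 reads in sum against 178, and for MYL9 both libraries had 0. The 412 reads were 0.234% of the mean reads of the 8505C libraries for the same genes, and for single genes the share lay between 0% and 1.03%. Without MMP1 the sums were 165 reads against 64, and the share was 0.429%. For the 12 genes lowest in 8505C, its CRABP1 library had 77 reads in sum against 124 with vector. Of these, 4 had more reads with CRABP1, 5 had fewer and 3 were equal. What lies behind these low reads was not tested.

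PEG10, a retrotransposon-derived imprinted gene with a role in placenta (ENSG00000242265, chromosome 7, 94656325 to 94669695), led the protein-coding genes lower in 8505C. It had 689 and 494 TPM in FTC-133, from about 25100 and 17441 reads, and was listed at 0 TPM in both 8505C libraries. LCP1, the actin-bundling L-plastin of leukocytes and many tumour lines, had 175 and 179 TPM against 0.0396 and 0 TPM. CD70, the ligand of the costimulatory receptor CD27, had 344 and 248 TPM against 0.385 and 0.516 TPM, a difference of -7.66 ± 0.20 (SE, limma adjusted p = 0.00336). SPP1, the secreted phosphoprotein osteopontin, had 804 and 937 TPM against 4.4 and 2.21 TPM, a difference of -7.71 ± 0.27 (SE, limma adjusted p = 0.00336). In each of these genes the 8505C libraries lay below every FTC-133 library, which follows from their ranking on the same libraries. COL1A1 and COL1A2, the chains of type I collagen, had 388 and 174 TPM and 213 and 156 TPM in FTC-133, whereas 8505C had 1.22 and 0.743 TPM of COL1A1 and 0.0352 and 0.0530 TPM of COL1A2. MT1E, THY1, PAGE2, ADGRL4 and CTAG2 were also among the 12 lowest. The unnamed lincRNA ENSG00000227706, singled out after its values were seen because it lies outside the naming rule, had 1126 and 1258 TPM in FTC-133 and was listed at 0 TPM in both 8505C libraries.

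Presence in 1 line alone was asked as a question of its own, as a listing at 0 TPM in both libraries of a line and at least 10 TPM in both of the other. It held for 10 genes in 8505C, 6 of them protein-coding, and for 89 genes in FTC-133, 41 of them protein-coding. Those of 8505C included MYL9, the smooth-muscle myosin light chain, at 62.7 and 56.0 TPM, ANOS1, an extracellular adhesion protein, at 40.2 and 33.0 TPM, the keratinocyte protein KPRP at 34.1 and 32.3 TPM, the trophoblast and ectoderm factor TFAP2C at 29.1 and 31.9 TPM and the zinc finger gene ZNF518B at 24.4 and 23.3 TPM. For MYL9 a count of 3 reads corresponds to 0.195 TPM in FTC-133 with vector and 0.202 TPM with CRABP1, which bounds what a listing of 0 can hide, in counting error only. Besides PEG10 and MT1E, the highest of the protein-coding genes in FTC-133 alone were CSF2, NRN1, CXCL5, RGS1, GNAT3, CXCL6, GTSF1 and ADAMTSL3. CSF2, a growth factor of myeloid cells, had 49.4 and 434 TPM in FTC-133. NRN1, a surface protein that promotes neurite growth, had 79.9 and 54.0 TPM, and RGS1, an inhibitor of G-protein signalling, 72.6 and 43.3 TPM. CXCL5, a neutrophil chemokine, had 72.8 and 222 TPM, and its neighbour and close relative CXCL6 had 26.6 and 87.6 TPM. For CSF2, CXCL5 and CXCL6 the FTC-133 CRABP1 library was over 3 times the vector library, so that their exact level in FTC-133 is less certain than their listing at 0 in 8505C.

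Promoter sequences are shown for 5 genes that were below 2 TPM in both libraries of a line and far higher in the other, 4 with few CpG dinucleotides and 1 rich in them. The windows are RefSeq promoters of GRCh38.p14 from 250 bases before to 50 bases after the start, and their median number of CpG was 26 over the 10496 matched of 12901 protein-coding genes tested that had a symbol. A comparison of CpG number between sets of genes is void, because windows matched only 339 of the 474 genes below 0.5 TPM in 8505C with at least 2 TPM in FTC-133 and 117 of the 168 genes of the reverse kind. CXCL5 (chr4:73998628-73998927, minus strand, 9 CpG) and CXCL6 (chr4:73836428-73836727, plus strand, 8 CpG) are in capitals where the NF-kB motif (GGG, any 3 bases, TTCC) matched on either strand, in overlapping matches that begin 91 and 90 bases before the start of CXCL5 and 90 and 89 before that of CXCL6. RGS1 (chr1:192575523-192575822, plus strand, 6 CpG) and ESM1 (chr5:54985544-54985843, minus strand, 8 CpG) are in capitals at TATAAA, 27 and 32 bases before the start. PERP (chr6:138107370-138107669, minus strand, 43 CpG) is in capitals at the GC box, GGGCGG on either strand, which matched 5 times with an overlap of neighbouring matches. Each window is marked for 1 motif alone. Of the motifs named here, 1 NF-kB match in RGS1 and 2 GC boxes in CXCL6 are left unmarked. Matches to other motifs are not shown.
CXCL5: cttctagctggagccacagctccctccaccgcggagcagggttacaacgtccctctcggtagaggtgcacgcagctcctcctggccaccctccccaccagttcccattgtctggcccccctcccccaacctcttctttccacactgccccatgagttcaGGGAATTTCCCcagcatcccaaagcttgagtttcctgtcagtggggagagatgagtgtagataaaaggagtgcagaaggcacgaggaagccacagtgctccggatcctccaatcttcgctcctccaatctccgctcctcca
CXCL6: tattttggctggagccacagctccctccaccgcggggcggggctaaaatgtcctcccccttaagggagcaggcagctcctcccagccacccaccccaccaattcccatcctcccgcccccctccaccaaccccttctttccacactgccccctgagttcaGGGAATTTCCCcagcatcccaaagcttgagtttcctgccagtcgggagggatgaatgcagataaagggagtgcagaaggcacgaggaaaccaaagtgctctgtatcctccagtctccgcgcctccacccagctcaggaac
RGS1: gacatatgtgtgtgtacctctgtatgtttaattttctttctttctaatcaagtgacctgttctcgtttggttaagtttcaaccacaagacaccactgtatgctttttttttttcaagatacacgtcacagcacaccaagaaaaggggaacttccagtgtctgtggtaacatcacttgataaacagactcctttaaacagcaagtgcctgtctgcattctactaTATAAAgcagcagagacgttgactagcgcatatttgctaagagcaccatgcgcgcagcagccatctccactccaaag
ESM1: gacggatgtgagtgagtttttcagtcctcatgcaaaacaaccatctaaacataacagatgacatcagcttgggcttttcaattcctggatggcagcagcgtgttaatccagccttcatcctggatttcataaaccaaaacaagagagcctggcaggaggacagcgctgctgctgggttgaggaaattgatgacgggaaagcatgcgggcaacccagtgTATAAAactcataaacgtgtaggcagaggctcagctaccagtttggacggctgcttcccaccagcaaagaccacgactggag
PERP: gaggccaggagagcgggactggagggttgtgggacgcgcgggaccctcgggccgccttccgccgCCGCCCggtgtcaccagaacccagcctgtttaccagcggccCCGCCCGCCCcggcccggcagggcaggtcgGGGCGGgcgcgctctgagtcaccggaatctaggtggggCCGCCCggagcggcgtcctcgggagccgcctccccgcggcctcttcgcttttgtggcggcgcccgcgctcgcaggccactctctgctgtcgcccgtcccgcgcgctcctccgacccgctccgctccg
With an offset of 1 base, the windows of CXCL5 and CXCL6 were identical at 248 of 299 bases (82.9%). Of all 15317 protein-coding windows, the NF-kB letters were in 6.99%, TATAAA in 9.59% and the GC box in 59.2%. A match is a run of letters and says nothing of what binds there.

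Thyroid hormone genes were close to absent in both lines, and the thyroid transcription factors split. TG, thyroglobulin, had 0.0165 and 0.681 TPM in FTC-133 and 0.0353 and 0.0886 TPM in 8505C. TSHR, the thyrotropin receptor, had 0.945 and 0.956 TPM in FTC-133, from about 51 and 50 reads, and was listed at 0 in both 8505C libraries. SLC5A5, the iodide transporter, was listed at 0 in all 4 libraries. TG, TSHR and SLC5A5 were thus below 1 TPM in every library, those of the follicular line included. PAX8, the paired-box factor that activates the thyroglobulin gene (ENSG00000125618, chromosome 2), had 100 and 143 TPM in FTC-133 against 0.240 and 0.161 TPM in 8505C, a difference of -6.65 ± 0.22 (SE, limma adjusted p = 0.00336). FOXE1, the forkhead factor of thyroid development, had 8.06 and 15.2 TPM against 0.0568 and 0.0570 TPM. In the other direction, NKX2-1, the homeobox factor shared by thyroid and lung, had 44.7 and 17.7 TPM in FTC-133 and 118 and 114 TPM in 8505C, a difference of 2.00 ± 0.34 (SE, limma adjusted p = 0.0247). HHEX, a homeobox repressor of early thyroid, had 8.45 and 9.32 TPM against 22.4 and 27.8 TPM. All 4 factors passed the test, as did 35.2% of all genes tested. PAX8 and FOXE1 were lower and NKX2-1 and HHEX higher in 8505C. Of the 20 genes of thyroid differentiation listed, 13 were under 1 TPM in every library and 4 were tested, among which GLIS3 and THRB were called lower in 8505C. The long noncoding RNA PTCSC3, a thyroid cancer susceptibility candidate, had 0 and 0.332 TPM in FTC-133 and 24.1 and 40.8 TPM in 8505C.

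**Figure D2:**
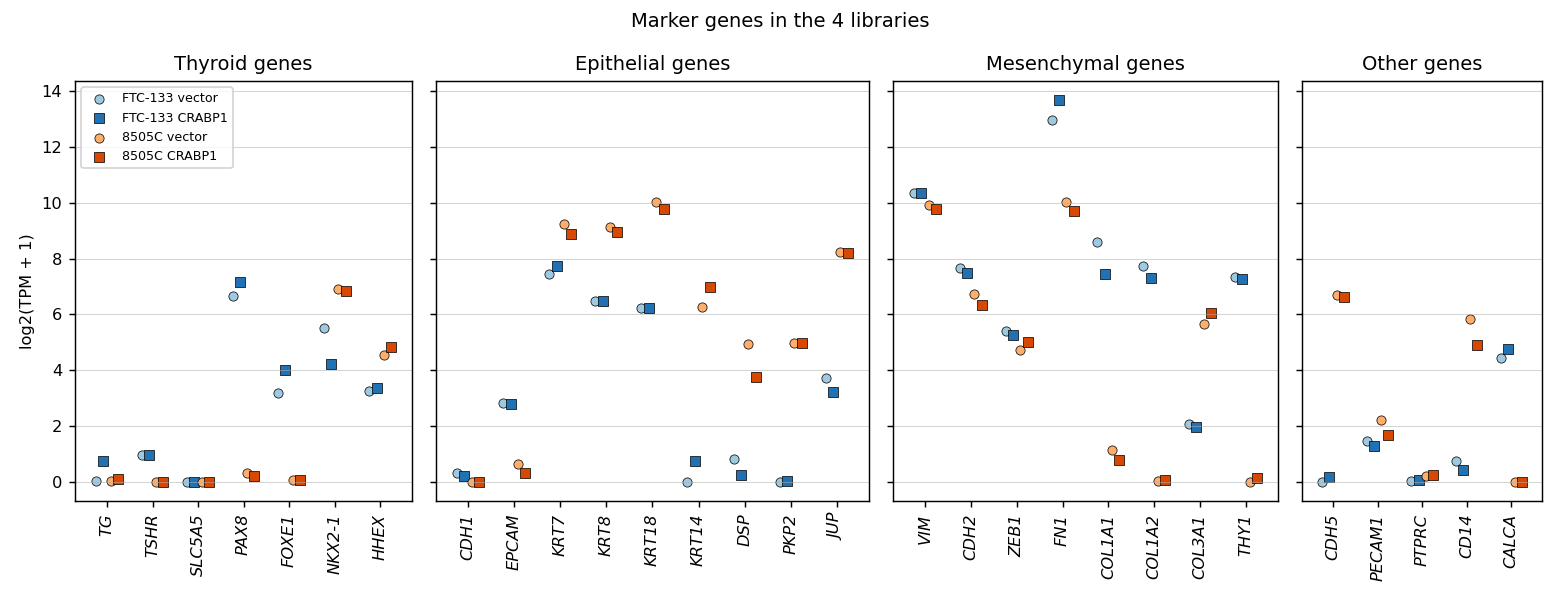
Level of marker genes as log2(TPM + 1) on the vertical axis, with genes along the horizontal axis and 1 point per library (circles vector, squares CRABP1, blue FTC-133, orange 8505C). TG, TSHR and SLC5A5 lie near 0 in all 4 libraries, PAX8, COL1A1, COL1A2 and THY1 lie high in FTC-133 and near 0 in 8505C, and KRT14, PKP2, CDH5 and CD14 show the reverse.

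Keratins were the epithelial group that stood highest in 8505C. Of 11 measured keratins, 6 were called higher in 8505C and 0 lower, with a median difference of 1.48 against -0.19 over all genes tested. KRT18 and KRT8, the partner keratins of simple epithelia, had 74.9 and 73.6 TPM and 88.0 and 87.9 TPM in FTC-133, against 1039 and 869 TPM and 564 and 496 TPM in 8505C. The differences were 3.66 ± 0.11 and 2.57 ± 0.10 (SE, limma adjusted p = 0.00336 and 0.00358). KRT14, a keratin of basal stratified epithelium, had 0 and 0.672 TPM against 76.7 and 126 TPM, and KRT17, a keratin of basal and injured epithelium, 0.587 and 0.363 TPM against 14.3 and 28.5 TPM. KRT5, the usual partner of KRT14, was listed at 0 in all 4 libraries, and KRT19, a common thyroid carcinoma marker, stayed below 2 TPM throughout. KRT7 and KRT4 were the other keratins called, and KRT80 had 107 and 139 TPM against 102 and 72.3 TPM and did not pass the test.

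Junction genes were called in both directions, with several desmosome genes higher in 8505C and several tight junction genes lower. Of 30 measured genes of epithelial junctions, 12 were called higher and 9 lower, with a median of 0.20. PERP, a desmosome protein, had 1.27 and 1.72 TPM in FTC-133 and 179 and 167 TPM in 8505C. DSC3, a desmosomal cadherin, had 0.0716 and 0.123 TPM against 65.8 and 58.6 TPM, PKP2, a plaque protein, 0 and 0.0269 TPM against 30.7 and 30.8 TPM, and JUP, plakoglobin, 12.3 and 8.4 TPM against 303 and 293 TPM. These 4 were named for the largest ratios upward in the list, so their separation follows from the choice. JUP differed by 4.74 ± 0.15 (SE, limma adjusted p = 0.00336). DSG2, another desmosomal cadherin, went the other way with 155 and 134 TPM against 101 and 92.6 TPM. ITGB4, the integrin subunit of hemidesmosomes, had 11.7 and 5.41 TPM against 472 and 399 TPM, and its partner ITGA6 91.2 and 70.7 TPM against 361 and 388 TPM. OCLN, the tight junction protein occludin, was lower in 8505C with 8.12 and 7.60 TPM against 0.960 and 0.787 TPM. CLDN16, a tight junction claudin, had 33.1 and 103 TPM against 1.26 and 1.10 TPM, and EPCAM, an epithelial adhesion protein, 6.13 and 5.87 TPM against 0.546 and 0.235 TPM. CDH1, the defining cadherin of epithelium, was at most 0.241 TPM in any library, so neither line was epithelial by that marker.

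Mesenchymal genes were expressed in both lines, and most that differed were lower in 8505C. Of 32 measured mesenchymal and transition factors, 6 were called higher and 18 lower in 8505C, with a median of -0.98. VIM, the intermediate filament of mesenchyme, had 1316 and 1297 TPM in FTC-133 and 969 and 884 TPM in 8505C, a difference of -0.50 ± 0.11 (SE, limma adjusted p = 0.0421). CDH2, N-cadherin, had 201 and 176 TPM against 107 and 80.6 TPM, and ZEB1, a repressor of epithelial genes, 41.2 and 37.7 TPM against 25.8 and 31.0 TPM, which did not pass the test. SNAI2, a repressor of the same kind, had 27.6 and 45.7 TPM against 1.27 and 0.638 TPM. FN1, fibronectin, had 7983 and 13070 TPM in FTC-133 and 1031 and 830 TPM in 8505C, a difference of -3.46 ± 0.30 (SE, limma adjusted p = 0.00818). TGFBI, a matrix adaptor protein, was among the 6 higher, with 11 and 18.4 TPM against 770 and 539 TPM. VIM and CDH2 were at least 80.6 TPM in each 8505C library, so 8505C combined more keratin and desmosome RNA with retained mesenchymal RNA.

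Matrix genes moved in opposite directions within families. Among 43 measured extracellular matrix genes 12 were called higher and 18 lower in 8505C, beside 13% and 22.2% of all genes tested. COL3A1, the fibrillar collagen that often accompanies type I, was higher with 3.18 and 2.95 TPM in FTC-133 against 50.0 and 66.0 TPM in 8505C, the reverse of COL1A1 and COL1A2. THBS1, the matricellular protein thrombospondin, had 77.5 and 37.2 TPM against 2257 and 2397 TPM, a difference of 5.41 ± 0.31 (SE, limma adjusted p = 0.00495). The proteoglycan VCAN, versican, had 412 and 319 TPM against 7.39 and 4.34 TPM. Matrix proteases divided likewise, with 12 of 33 measured proteases and inhibitors called each way. While MMP1 was high in 8505C, MMP14, the membrane-bound activator of other proteases, had 1621 and 1670 TPM in FTC-133 and 33.5 and 18.9 TPM in 8505C. MMP2, the gelatinase that MMP14 activates, had 506 and 485 TPM against 11.1 and 10.7 TPM. The differences were -5.97 ± 0.24 and -5.38 ± 0.09 (SE, limma adjusted p = 0.00356 and 0.00336). PLAT, a plasminogen activator, had 68.0 and 57.0 TPM against 558 and 481 TPM. The protease sets of the lines were thus different at the RNA level, with MMP14 and MMP2 high in FTC-133 and MMP1 and PLAT high in 8505C.

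HOX genes, which encode position along the body axis, were mostly lower in 8505C. Of 22 measured HOX genes 15 were called lower and 1, HOXC13, higher, with a median of -2.23. Over all genes tested 22.2% were called lower and 13% higher. HOXB7 had 42.4 and 48.0 TPM in FTC-133 and 0.257 and 0.258 TPM in 8505C, and HOXB4 25.9 and 26 TPM against 0.0982 and 0.492 TPM. HOXD8 had 8.03 and 8.51 TPM in FTC-133 and was listed at 0 in both 8505C libraries. HOXC13, a factor of hair and nail, had 0.156 and 0.402 TPM against 6.34 and 5.44 TPM. Other lineage factors were called in both directions, 18 of 48 higher and 15 lower. FOXC2, a mesenchyme and lymphatic factor, had 0.0633 and 0.131 TPM against 56.7 and 84.1 TPM, and TFAP2A, an ectoderm and placode factor related to TFAP2C, 1.19 and 2.05 TPM against 88.3 and 101 TPM. RUNX3 had 0.0406 and 0.126 TPM against 35.5 and 26.9 TPM. TBX15 and FOXD1, factors of limb and kidney mesenchyme, were lower in 8505C, with 47.9 and 59.9 TPM and 26.7 and 30.9 TPM in FTC-133 and below 1 TPM in 8505C.

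**Figure D3:**
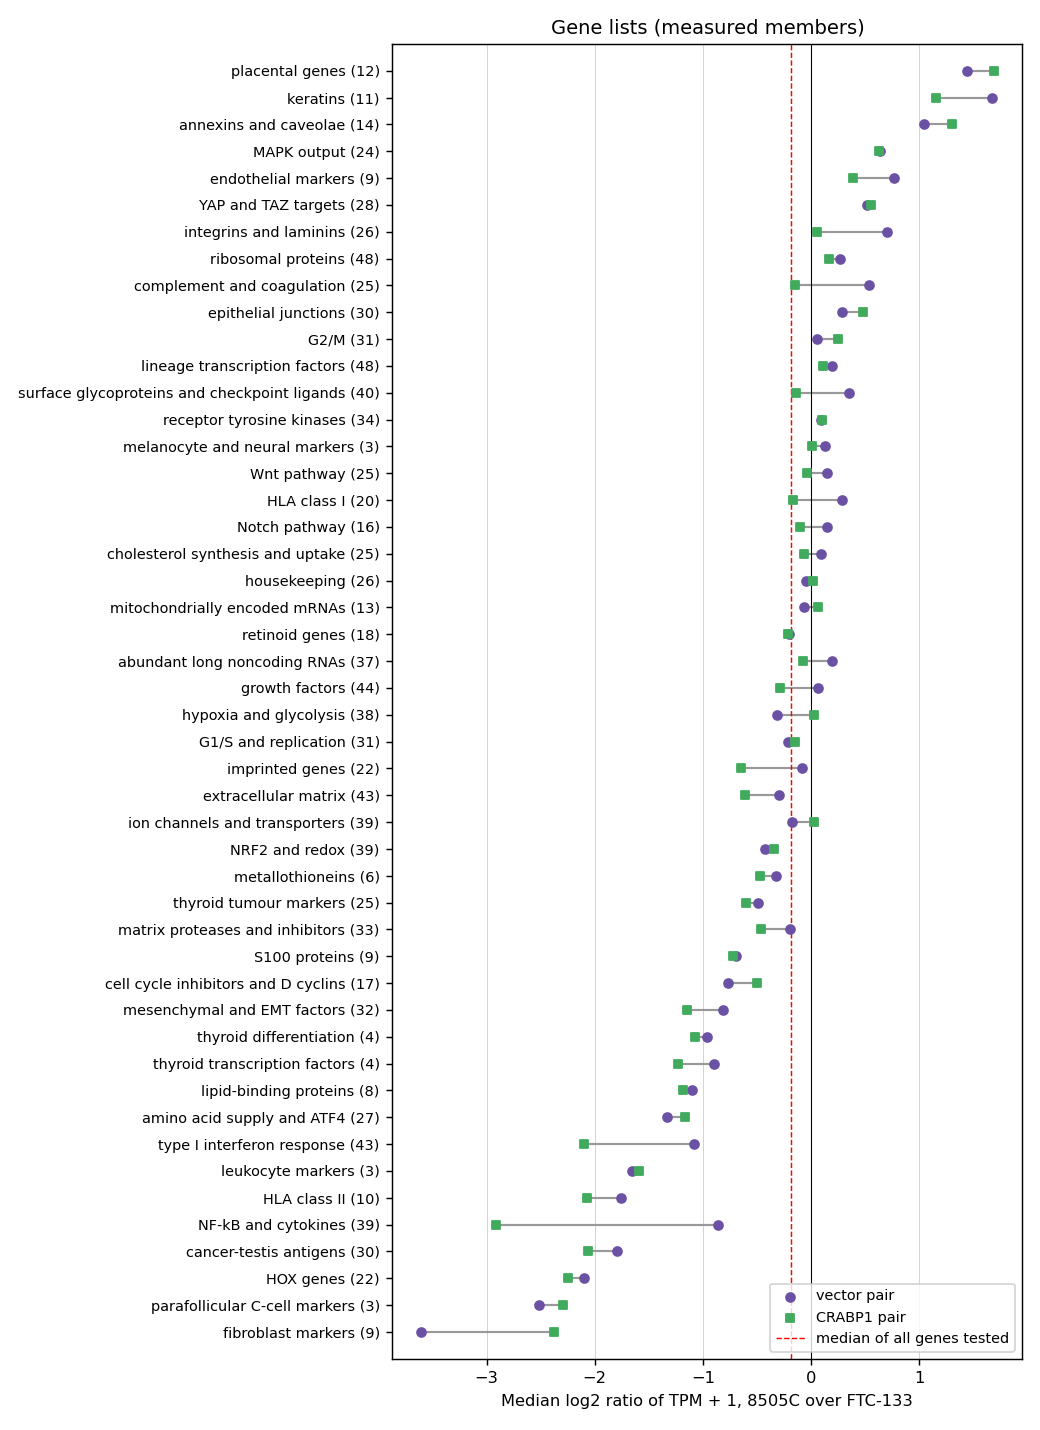
Median log2 ratio of TPM + 1, 8505C over FTC-133, for gene lists with at least 3 measured members (number in brackets), with the vector pair as circles and the CRABP1 pair as squares joined by a line. The dashed line is the median of all genes tested, -0.19, and the NF-kB and cytokine list has the widest gap between the pairs, -0.86 and -2.92.

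More inflammatory genes were called lower than higher in 8505C, and the size of the difference depended on which FTC-133 library was compared. Of 39 measured NF-kB targets and cytokines, 3 were called higher and 16 lower in 8505C, and 20 did not pass the test. In the vector pair 19 were 2-fold lower and the list median was -0.86, whereas in the CRABP1 pair 33 were 2-fold lower and the median was -2.92. CXCL8, a neutrophil chemokine, shows this with 203 and 1834 TPM in FTC-133 and 167 and 88.3 TPM in 8505C. IL6, a proinflammatory cytokine, had 33.5 and 189 TPM against 31.1 and 20.8 TPM. In the vector pair CXCL8 and IL6 were nearly level, and neither passed the test (limma adjusted p = 0.173 and 0.194). CXCL5, CXCL6, CSF2 and the hyaluronan-binding protein TNFAIP6 were lower in both pairs and listed at 0 in 8505C. IL18, an inflammasome cytokine, went the other way with 0.141 and 0.728 TPM in FTC-133 and 71.0 and 86.3 TPM in 8505C, and the adhesion molecule ICAM1 with 1.39 and 0.824 TPM against 69.6 and 51.8 TPM.

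More interferon-stimulated genes were lower in 8505C than higher. Of 43 measured members of the type I interferon response, 25 were called lower, 4 higher (IFITM1, IFITM2, IFITM3 and DDX60) and 14 did not pass the test, with medians of -1.08 in the vector pair and -2.10 in the CRABP1 pair. IFI44 had 135 and 198 TPM in FTC-133 and 1.25 and 1.45 TPM in 8505C, and IFI27 109 and 218 TPM against 2.89 and 2.38 TPM. STAT2, a transcription factor of the pathway, had 71.9 and 102 TPM in FTC-133 against 27.2 and 21.9 TPM in 8505C. IFITM3, a membrane protein that restricts virus entry, was higher with 147 and 333 TPM against 2153 and 1799 TPM, and so were its relatives IFITM1 and IFITM2. The difference for IFITM3 was 3.15 ± 0.39 (SE, limma adjusted p = 0.0139). Of 10 measured genes of class II antigen presentation 6 were called lower and 1 higher, and CD74, the invariant chain, had 14.8 and 32.2 TPM against 0.288 and 0.0413 TPM. Of 20 measured class I genes 17 did not pass the test. ERAP2, an aminopeptidase that trims class I peptides, had 7.03 and 8.73 TPM against 241 and 234 TPM, and HLA-E was also called higher.

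Transcriptional targets of the MAPK and YAP pathways were more often higher than lower in 8505C, whereas all genes tested were called higher in 13% and lower in 22.2%. Of 24 measured MAPK output genes 14 were called higher and 6 lower, with a median of 0.75. The feedback inhibitors DUSP4 and SPRY4 had 16.1 and 12.4 TPM and 11.4 and 14.8 TPM in FTC-133 against 96.0 and 126 TPM and 34.8 and 45.4 TPM in 8505C. DUSP6, the phosphatase of ERK, had 42.1 and 42.5 TPM against 81.0 and 73.9 TPM, a difference of 0.86 ± 0.10 (SE, limma adjusted p = 0.0138). EGR1, an immediate early factor, and HMGA2, an architectural chromatin protein, were among the 6 lower. Of 28 measured YAP and TAZ targets 15 were called higher and 3 lower, with a median of 0.54. CCN2, connective tissue growth factor, had 184 and 164 TPM against 1014 and 1623 TPM, while ANKRD1 was lower with 539 and 646 TPM against 119 and 160 TPM. Annexins and caveolar proteins, 9 of 14 called higher and 3 lower with a median of 1.10, included CAV1, the caveolin coat protein, at 318 and 368 TPM against 1166 and 1116 TPM.

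Growth factors and their receptors were exchanged rather than shifted one way. Of 44 measured growth factors and binding proteins 14 were called in each direction, and of 34 receptor tyrosine kinases 10 were called higher and 12 lower. Over all genes tested 13% were called higher and 22.2% lower. PDGFB, a mitogen of mesenchymal cells, had 0.0488 and 0.0504 TPM in FTC-133 and 44.5 and 47.4 TPM in 8505C. IGFBP7 and IGFBP3, which bind insulin-like growth factors, had 6.38 and 29.9 TPM and 19.1 and 5.02 TPM in FTC-133 against 669 and 678 TPM and 341 and 205 TPM in 8505C. GREM1, a BMP antagonist, was lower in 8505C with 84.5 and 105 TPM against 0.0798 and 0.0267 TPM, and FGF5, a fibroblast growth factor, with 237 and 188 TPM against 14.8 and 13.6 TPM. Among receptors, ROS1 had 37.2 and 33.3 TPM against 0.05 and 0.0502 TPM and EPHA5 42.4 and 23.2 TPM against 0.02 and 0.0401 TPM. ERBB3, a partner receptor of the EGF family, and FGFR3 were higher in 8505C at 9.46 and 9.97 TPM and 7.46 and 9.80 TPM, and below 0.5 TPM in FTC-133. The same kind of exchange was seen in the Wnt list, 11 of 25 called higher and 6 lower, where the secreted inhibitor SFRP1 had 103 and 93.8 TPM against 1501 and 1404 TPM and the receptor FZD1 63.7 and 38.4 TPM against 1.95 and 2.12 TPM.

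Genes of amino acid supply and the integrated stress response were mostly lower in 8505C, which did not hold for the oxidative stress list. Of 27 measured genes of amino acid supply and ATF4, the transcription factor of the integrated stress response, 2 were called higher and 18 lower, with a median of -1.30. DDIT3, which encodes the factor CHOP, had 193 and 249 TPM in FTC-133 and 18.1 and 21.4 TPM in 8505C, a difference of -3.41 ± 0.10 (SE, limma adjusted p = 0.00336). ATF4 itself had 438 and 654 TPM against 337 and 495 TPM and did not pass the test (limma adjusted p = 0.0509). HMOX1, the heme oxygenase of the oxidative stress response, had 328 and 502 TPM against 6.24 and 7.21 TPM, and of its 39 measured list members 6 were called higher, 14 lower and 19 did not pass the test. GDF15, a stress cytokine, had 96.4 and 194 TPM against 2.07 and 2.27 TPM and CDKN1A, an inhibitor of cyclin-dependent kinases, 51.7 and 57.0 TPM against 14.5 and 17.1 TPM. Among metallothioneins, which bind zinc and copper, MT1E had 156 and 205 TPM and was listed at 0 in 8505C, whereas MT2A had 460 and 560 TPM against 541 and 462 TPM. Metallothioneins are near-identical copies, and how reads were shared among them is not given in the sources used here.

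Genes of G2/M and of G1/S were less often 2-fold different in both pairs than all genes tested, of which 23.6% were. Of 31 measured G2/M genes, which drive mitosis, 26 did not pass the test, with a median of 0.15, and 2-fold in both pairs was met by 1 gene. Of 31 G1/S and replication genes 8 were called higher and 7 lower, a larger share than the 35.2% of all genes tested, but 2-fold in both pairs was met by 1 each way, and the median was -0.16. At the level of cyclins the lines differed in both directions. CCND1, the D cyclin of G1, had 231 and 242 TPM in FTC-133 against 522 and 632 TPM in 8505C, a difference of 1.28 ± 0.11 (SE, limma adjusted p = 0.00805). CCNE1, the E cyclin, had 26.5 and 32.3 TPM against 6.31 and 7.37 TPM, and CDKN2A, which encodes the inhibitor p16, 80.2 and 97.8 TPM against 29 and 31.2 TPM. Of 38 genes of hypoxia and glycolysis 11 were called higher and 12 lower, beside 13% and 22.2% of all genes tested. SLC16A3, the lactate exporter, had 1.96 and 1.41 TPM against 62.9 and 55.2 TPM, and CA12, a membrane carbonic anhydrase, 75.8 and 67.0 TPM against 1.83 and 1.10 TPM.

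Cancer-testis antigens and imprinted genes contained several of the on and off differences. Of 30 measured cancer-testis antigens, germ-line genes reactivated in tumours, 18 were called lower and 3 higher in 8505C, with a median of -2.06. MAGEA10 had 138 and 95.6 TPM against 0.542 and 0.408 TPM, and CTAG2 116 and 118 TPM against 0 and 0.199 TPM. MAGEA3 went the other way with 95.6 and 75.9 TPM against 160 and 153 TPM. PAGE2 belongs to a family of near-identical copies, and its 175 and 378 TPM in FTC-133 against 0.297 and 0 TPM in 8505C are uncertain as to the copy. Among 22 measured imprinted genes, which are expressed from 1 parental copy, 5 were called higher and 7 lower, beside 13% and 22.2% of all genes tested. SGCE, the neighbour of PEG10 that is imprinted with it, had 27.1 and 26.1 TPM against 0.0188 and 0.0378 TPM. NAP1L5 had 41.2 and 32.6 TPM against 0.103 and 0 TPM, MEG3, a noncoding tumour suppressor RNA, 22 and 18.9 TPM against 0.00847 and 0.00849 TPM, and PLAGL1 6.08 and 6.47 TPM against 0.0225 and 0 TPM. ZDBF2 was the reverse, with 0 and 0.0869 TPM in FTC-133 and 22.1 and 23.4 TPM in 8505C, and the noncoding RNA H19 had 0.0634 and 0.654 TPM against 3.8 and 11 TPM. Of 12 measured placental genes 7 were called higher in 8505C and 1 lower, with a median of 1.77, and KISS1, the precursor of kisspeptin, had 0 and 0.265 TPM against 85.6 and 56.1 TPM.

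Genes of general cell function were seldom 2-fold different in both pairs, which 23.6% of all genes tested were. Of 26 measured housekeeping genes 4 were called higher and 2 lower, whereas 35.2% of all genes tested were called. The other 20 did not pass the test, among them ACTB with 4484 and 4247 TPM against 4240 and 4930 TPM. The list median was -0.02, and 2-fold in both pairs was met by 1 gene each way. Exceptions were TFRC, the transferrin receptor, with 374 and 313 TPM against 153 and 140 TPM, and SDHA, a mitochondrial dehydrogenase subunit, with 5.68 and 5.28 TPM against 15.9 and 17.1 TPM. Of 48 measured ribosomal protein genes 16 were called higher and 1 lower, whereas 13% of all genes tested were called higher and 22.2% lower. Calls among the ribosomal protein genes thus leaned upward. Only 2 of them were 2-fold in both pairs, and their median was 0.23. None of 13 mitochondrially encoded mRNAs was called by limma or was 2-fold in both pairs, and their median was -0.03.

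Markers of other cell types were in part expressed. Under 1 TPM in every library were 10 of 14 leukocyte markers, 10 of 16 melanocyte and neural markers and 5 of 10 parafollicular markers, but only 2 of 11 endothelial and 1 of 10 fibroblast markers. The summed TPM of 14 leukocyte markers was 9.34 and 7.05 for FTC-133, against 57.4 and 29.3 for 8505C, of which CD14, a lipopolysaccharide receptor, made 56.5 and 28.6 TPM. The defining leukocyte marker PTPRC was at most 0.194 TPM in any library, and CD3E and CD68 were below 0.2 TPM. CDH5 and PLVAP, endothelial markers, were high in 8505C, but VWF, PECAM1 and KDR, which define endothelium, were at most 3.68 TPM in every library and did not pass the test where they were tested. The summed TPM of 10 fibroblast markers was 936 and 641 for FTC-133, against 216 and 297 for 8505C, while PDGFRA was at most 0.212 TPM. CALCA, the calcitonin gene of parafollicular cells, had 20.9 and 25.8 TPM in FTC-133 and was listed at 0 in 8505C, and CHGA was below 0.2 TPM throughout. In bulk RNA, fewer cells that express a gene and less RNA per cell cannot be told apart.

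Position in the genome, which the choice of genes did not use, divided the differences unevenly. GENCODE 29 positions on GRCh38 were known for 12902 of the protein-coding genes tested. Over the 612 of them on chromosome 7 the median log2 difference was -0.97, with -0.99 in the vector pair and -0.97 in the CRABP1 pair, against -0.13 over all. On chromosome 7, 265 genes (43.3%) were 2-fold lower in 8505C in both pairs and 18 (2.94%) were 2-fold higher. Chromosome 7 held 4.74% of the protein-coding genes and 14.7% of those 2-fold lower. The other 22 chromosomes had medians between -0.61, for chromosome 18, and 0.27. In blocks of about 40 neighbouring genes, the 11 lowest of 310 blocks were all on chromosome 7, and the lowest median of a block elsewhere was -0.70. The decrease was not even along chromosome 7. The first block of the short arm, from FAM20C to USP42, had a median of 0.07, and the lowest, from GTPBP10 to PDAP1, one of -1.44. The latter stretch holds COL1A2, SGCE and PEG10. Single genes named on chromosome 7 included BRAF, MET, RFC2 and MCM7, which were lower in 8505C. EGFR, CAV1 and IGFBP3 did not follow, and IL6 did not pass the test. BRAF, a MAPK pathway kinase, had 17.5 and 19.2 TPM in FTC-133 against 8.94 and 8.79 TPM in 8505C, MET, the receptor of hepatocyte growth factor, 534 and 484 TPM against 236 and 289 TPM, and the replication genes RFC2 and MCM7 152 and 148 TPM and 254 and 253 TPM against 54.5 and 61.5 TPM and 125 and 152 TPM. EGFR had 83.1 and 98.3 TPM against 125 and 129 TPM and was higher in 8505C, as were CAV1 and IGFBP3. The highest block lay at the start of chromosome 5, from CCDC127 to MYO10, with a median of 1.21, and includes SDHA. The first blocks of chromosome 20 followed with 0.77 and 0.78. The number of copies of these chromosomes was not measured here.

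**Figure D4:**
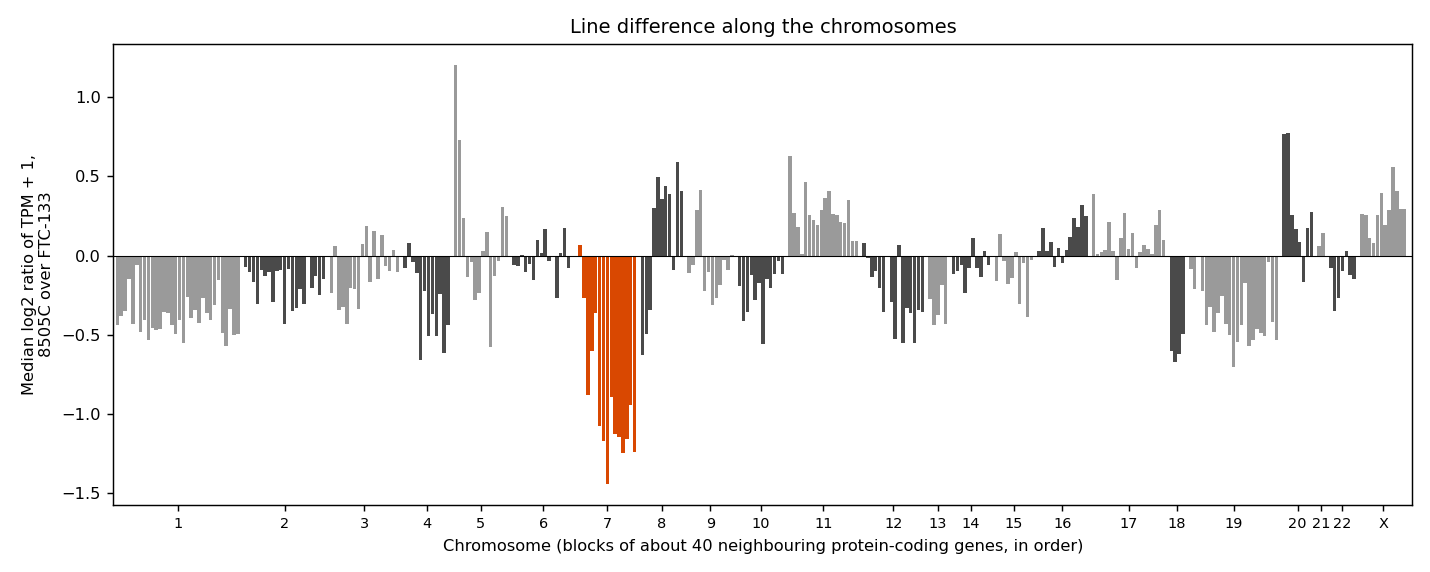
Median log2 ratio of TPM + 1, 8505C over FTC-133, in blocks of about 40 neighbouring protein-coding genes, ordered along each chromosome on the horizontal axis. Chromosome 7, in orange, holds the 11 lowest of 310 blocks, and the first block of chromosome 5 is the highest at 1.21.

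Some genes near 0 in 8505C lay in a row along a chromosome. A scan in order, by a rule chosen after values were seen, took the 14757 protein-coding genes that reached 0.5 TPM in at least 1 library and passed over the others. It found 7 runs of at least 3 such genes below 0.5 TPM in both 8505C libraries and at least 2 TPM in both FTC-133 libraries, and 0 runs of the reverse kind. There were also fewer single genes of the reverse kind, 168 against 474. The longest runs held 4 genes. One lies on chromosome 16 from 67029116 to 67160298 and holds CBFB, the partner subunit of the RUNX factors, PHAF1, B3GNT9 and TRADD, the adaptor of the tumour necrosis factor receptor. CBFB had 57.3 and 59.4 TPM in FTC-133 and 0.0423 and 0.0848 TPM in 8505C, from about 1 and 2 reads. PHAF1 had 11.1 and 11.9 TPM, B3GNT9 46.9 and 44.1 TPM and TRADD 11.3 and 14.4 TPM in FTC-133, and all 3 were listed at 0 in both 8505C libraries. On the proximal side CES2 had 24.3 and 37.6 TPM against 34.7 and 32.9 TPM, and on the distal side NOL3 had 21.1 and 21.1 TPM against 30.3 and 28.1 TPM, so both flanks were present in both lines. FBXL8, next to TRADD, was low in 8505C with 5.46 and 5.88 TPM against 0.377 and 1.26 TPM, and it overlaps the start of TRADD. Other runs held SH3GL3 and ADAMTSL3 on chromosome 15, DTX3, ARHGEF25 and B4GALNT1 on chromosome 12, HOXD8 to HOXD10, HOXB3 to HOXB5, PCDHB5 to PCDHB7, and PPP4R3C, DCAF8L2, MAGEB10 and DCAF8L1 on the X chromosome. Whether DNA of these regions is missing in 8505C was not measured.

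**Figure D5:**
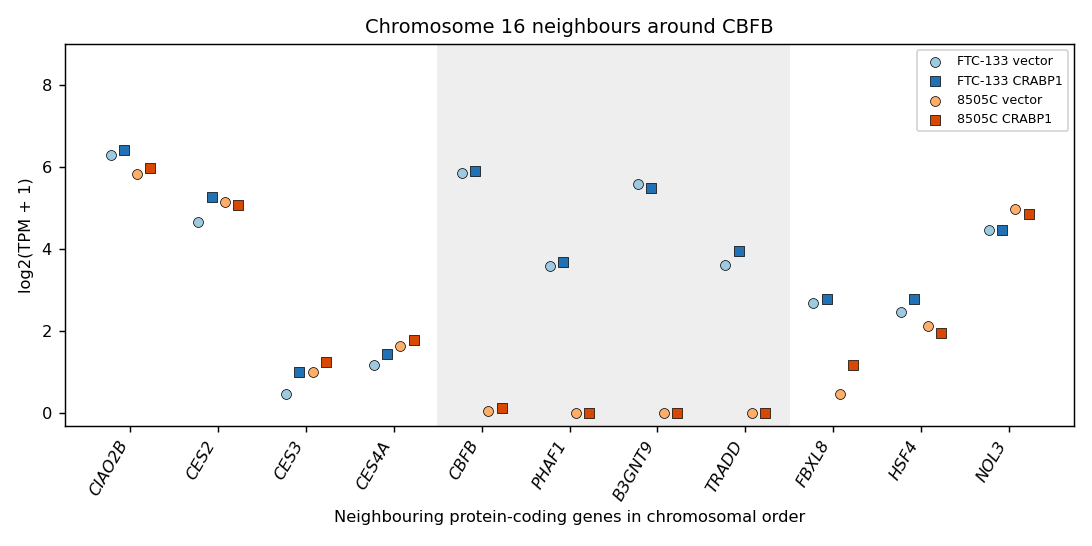
Level as log2(TPM + 1) of the scanned protein-coding genes of chromosome 16 around this run in their order, 1 point per library (circles vector, squares CRABP1, blue FTC-133, orange 8505C). In the shaded run from CBFB to TRADD the 8505C points lie at or near 0, while CIAO2B, CES2 and NOL3 are present in all 4 libraries.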

How the data were processed

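Total RNA from 4 libraries was measured as 1 table of TPM values that the authors deposited. Per the submitters' processing notes, the tools were Trimmomatic 0.38, FastQC and featureCounts 2.0.0, with GRCh38 as the build. Neither aligner nor annotation nor strandedness is stated in the labels, so overlapping antisense genes cannot be separated. Reads were recovered from the TPM with GENCODE 29 exon lengths: 90.5% to 91.6% of low values (at most 50 reads) lay within 0.02 of a whole read. They served for depths and floors of 3 reads, which cover counting error only.

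Genes needed a mean of at least 1 TPM. Ratios used log2(TPM + 1). limma 3.58.1 in R 4.3.3 was fitted with a mean-variance trend and terms for cell line and transfection, leaving 1 residual degree of freedom. The test was two-sided, with Benjamini-Hochberg adjustment at 0.05. The code was run on simulated data with few changed genes, independent libraries and no transfection effect. That setting differs from the real libraries, so it says nothing of the error rate here. Between 2 and 2 libraries, an exact permutation test cannot go below 0.33 and was not used. Python 3.11.15, pandas 2.3.3, NumPy 2.4.6 and SciPy 1.17.1 did the rest.

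The genes, the 49 gene lists (1428 of 1434 genes matched) and the tests were chosen with earlier results of these data known. Named were the 12 protein-coding genes each way with the largest ratio in the weaker pair and at least 10 TPM in the higher line, the 10 highest each way listed at 0 in the other line, up to 4 per list and direction with its textbook members, and up to 5 each way that were opposite in the pairs. Genes outside this rule are named where a comparison turned on them, chosen after their values were seen. CRABP1 apart from its check, sex-linked markers, clones and pseudogenes were passed over, and some items are not reported here. Alternatives were another pseudocount, no filter, 5 TPM, median-ratio scaling, removal of mitochondrially encoded genes, protein-coding genes alone, no trend, no transfection term, a 2-fold test, a 4-fold rule, each pair alone, means and leaving out each library.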

Additional observations from a re-analysis of the deposited data

Results flagged for a closer look

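PDPN and C3 differed 2-fold in opposite directions in the vector pair and in the CRABP1 pair, and were the 2 protein-coding genes averaging 10 TPM or more that did so. PDPN, the membrane glycoprotein podoplanin, had 1.09 and 46.1 TPM in FTC-133 and 11.9 and 8.14 TPM in 8505C (vector library first). Its log2 ratio of 8505C over FTC-133 was 2.62 in the vector pair and -2.37 in the CRABP1 pair. C3, the central complement component, had 5.56 and 34.2 TPM in FTC-133 and 16.7 and 2.30 TPM in 8505C, and its ratios were 1.43 and -3.42. With 1 library per group the difference between the pairs was not tested. In limma neither gene passed the test between the lines (adjusted p = 0.946 for PDPN and 0.577 for C3).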

How the results depend on the processing

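With 2 libraries per line and 1 residual degree of freedom, the number of limma calls depended on the setting more than the direction of a gene did. Higher and lower in 8505C, limma called 441 and 741 genes with no filter on level, 521 and 908 when a difference of at least 2-fold was tested, and 1530 higher without a trend. When each library was left out in turn the calls ranged from 0 to 1221 higher and from 0 to 2398 lower. The lines alone, without the transfection term that pairs the libraries, gave 2890 and 5005. Of the genes called, 1 had the opposite sign in any of these fits, without the 8505C vector library. Genes 2-fold in both pairs were 933 and 1643 at a mean of at least 5 TPM, 555 and 1130 at 4-fold, 2285 higher in the vector pair alone and 1808 lower among protein-coding genes. Presence in 1 line alone at 1 TPM held for 222 genes in 8505C and 854 in FTC-133. The correlation of the pairs was 0.745 with a pseudocount of 0.1, 0.749 with no filter, 0.917 at 5 TPM and 0.931 among protein-coding genes. Lists with a median of at least 1 or of -1 or lower were 3 and 12, with no filter 0 and 6, and at 5 TPM 5 of the first kind. Signs turned for thyroid differentiation at 5 TPM (0.0286) and without mitochondrially encoded genes (0.00814), placental genes with no filter (-0.0876) and leukocyte markers at 5 TPM (4.78) and as a mean (0.37), where few members were measured. With median-ratio scaling the difference of MT2A turned from -0.02 to 0.14. At 5 TPM the medians of chromosomes 7, 11 and 18 were -0.98, 0.33 and -0.57. Low genes rest on few reads, and a value of 0 is limited by depth.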
